A study of Mus musculus with 103 samples.

Results

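The interferon response genes are 36 named mouse genes for interferon receptors, interferon regulatory factors, RNA sensors and proteins that cells make when interferon is sensed. They were taken by gene symbol from the bulk and the single-cell expression tables, and all 36 were found in both, among 43283 genes in the bulk table. RNA came from muscle stem cells of untreated C57BL/6 mice. Bulk RNA was sequenced from 3 young mice, from 2 mice of middle age (12 and 13 months) and from 3 old mice of 24 months, each library being a mouse of its own per the design text. A field of the labels gives the young mice as 3 months old, while their description says 2 months. Single cells were sequenced in 64 wells from 1 mouse of 3 months and 31 wells from 1 mouse of 24 months. The source is given as muscle stem cell, whereas the design text says myoblasts. The labels name no sort gate, and although they describe a culture medium, it is unclear from them if the RNA is of cultured cells.

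Interferons are secreted signals of infection. Type I interferons bind the receptor made of Ifnar1 and Ifnar2, interferon gamma binds the receptor made of Ifngr1 and Ifngr2, and both receptors act through Jak kinases. Irf9 is part of a complex that binds the interferon-stimulated response element (ISRE), and the response to interferon gamma also uses the gamma-activated site (GAS). Some interferon-induced genes, among them the Ifitm family, are also transcribed in stem cells without an interferon signal.

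The promoters show which of the genes carry these elements near their start. RefSeq promoters of the GRCm38.p6 build, from 250 bases before to 50 bases after the start, matched 31 of the 36 genes. The ISRE core, the letters GAAA, any 2 bases and GAAA again, was searched on both strands, and 15 of the 31 genes (48.4%) had a match, against 3.99% of 27025 genes with a promoter of the same length. The GAS core TTCNNNGAA, which reads the same on both strands, was found in 12 of the 31 genes (38.7%), against 9.55% of all genes. Matches to these cores are a description of the letters and may overlap each other. The upstream sequences of Irf1 and Irgm1 are shown because all middle-aged and all old bulk libraries lay above all young ones for these 2 genes. Adar also met this rule but had no upstream core, and its sequence is not shown. The shorter windows are shown because those genes are the textbook induced genes described below. Sequences run 5′ to 3′ on the gene's strand, and capitals mark the core matches.
Irf1, one GAS core, chr11:53769764-53770013, plus strand: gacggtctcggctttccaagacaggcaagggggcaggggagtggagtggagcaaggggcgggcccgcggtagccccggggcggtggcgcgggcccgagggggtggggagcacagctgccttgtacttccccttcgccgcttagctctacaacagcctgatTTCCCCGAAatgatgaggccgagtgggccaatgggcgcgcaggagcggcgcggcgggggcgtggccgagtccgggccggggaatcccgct
Irgm1, overlapping ISRE cores, chr11:48871421-48871670, minus strand: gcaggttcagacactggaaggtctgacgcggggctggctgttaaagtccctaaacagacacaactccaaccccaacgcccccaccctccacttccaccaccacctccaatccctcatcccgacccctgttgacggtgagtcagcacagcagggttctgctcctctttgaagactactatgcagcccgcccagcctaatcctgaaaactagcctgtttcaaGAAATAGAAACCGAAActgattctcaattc
Isg15, overlapping ISRE cores, chr4:156200860-156200911, minus strand: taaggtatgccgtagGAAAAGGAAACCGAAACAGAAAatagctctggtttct
Ifit1, ISRE core on the opposite strand, chr19:34640789-34640828, plus strand: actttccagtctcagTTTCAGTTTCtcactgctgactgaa
Gbp2, ISRE core on the opposite strand, chr3:142620589-142620628, plus strand: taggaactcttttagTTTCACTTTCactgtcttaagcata
Ifitm2, ISRE core, chr7:140955983-140956022, minus strand: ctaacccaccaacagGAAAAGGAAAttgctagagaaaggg

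The Irf1 GAS core began 90 bases before the start, and the overlapping Irgm1 ISRE cores began 30 bases before it. Isg15 held 3 overlapping ISRE cores in 1 stretch. Ifit1 held 2 separate ISRE cores, and only the one nearer the start is marked in its window. The other began 104 bases before the start, and its end stands in lower case at the left of that window. The second Irf1 promoter in the table had neither core. The ISRE cores of Ifitm3 lay just after its start, and Adar had a GAS core after a start and no upstream core.

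Expression was given in TPM (transcripts scaled to a common total), a share of each library that accounts for transcript length, so levels can be compared between genes. The genes were mostly transcribed at low levels in the bulk libraries. Mean levels over the 8 libraries ran from 0.54 TPM for Mx1 to 340 TPM for Ifitm3. Of the 36 genes, 4 had a mean of at least 50 TPM, namely Ifitm3, Ifitm2, Ifnar2 and Oasl2, 12 lay between 10 and 50 TPM, and 20 lay below 10 TPM. In all 8 libraries 20 genes were above 0, and 16 were listed at 0 in at least 1 library, as the heat map of levels shows. The number of genes listed at 0 was 7, 12 and 9 in the young libraries, 6 and 4 in the middle-aged and 7, 3 and 2 in the old. The number of all genes at 1 TPM or more also differed between libraries, at 16506, 12849 and 14559 in the young, 17004 and 15254 in the middle-aged and 14262, 17114 and 16636 in the old libraries. Its part in the differences below was not tested.

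**Figure D1:**
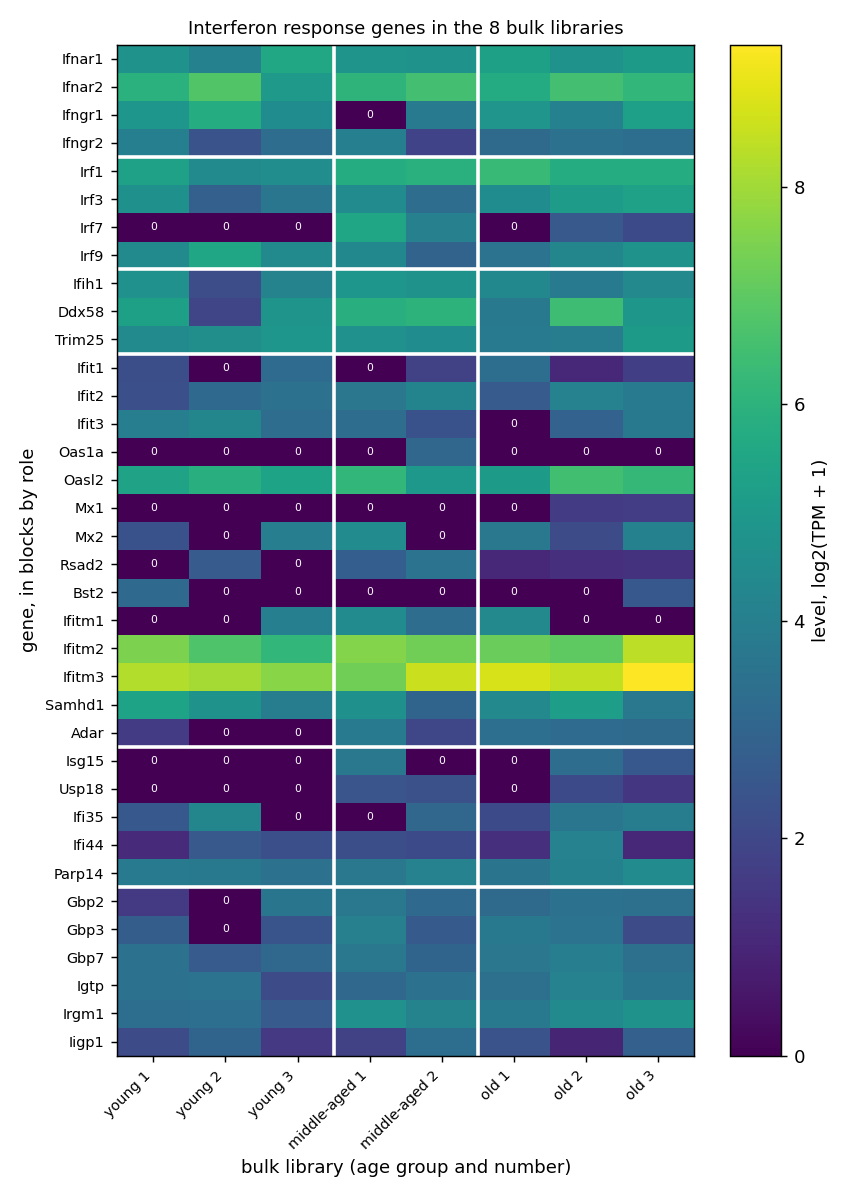
Level of each of the 36 interferon response genes (rows, in blocks by role) in each of the 8 bulk libraries (columns), in log2(TPM + 1); cells marked 0 are listed at 0 TPM. Ifitm2 and Ifitm3 are the brightest rows, and 16 genes are listed at 0 in at least 1 library.

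Differences between ages were tested with limma on log2(TPM + 1) over 22492 genes, those that averaged 1 TPM or more, with Benjamini-Hochberg adjustment over all of them. Of the 36 genes, 34 passed that minimum, and Oas1a and Mx1 did not. None of the 34 passed an adjusted p of 0.05 in any of the 3 comparisons. Among all genes, the share that passed was 0.0% for old against young, 0.00445% for middle-aged against young (1 gene, Mapkapk3, named because it was the only call) and 0.0% for old against middle-aged. No gene of the group is therefore described as changed, and the values below are descriptions of levels with their errors. Fewer cells of a type and less RNA per cell cannot be told apart in bulk libraries.

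Most of the genes had a higher mean log2 level in old than in young libraries. For old against young, 27 of the 34 tested genes had a log2 difference above 0 (79.4%) and 7 below it, against 49.6% above and 45.8% below among all genes tested. The median difference was 0.54 on the log2 scale, against 0.0 over all genes tested. At an unadjusted p of 0.05, 4 of the 34 were higher and none was lower, against 3.72% of all genes higher and 2.17% lower. The same 4 genes, Irf1, Ifitm3, Adar and Irgm1, had all 3 old libraries above all 3 young ones, which is 11.8% of the 34 against 5.85% of all genes. No gene of the group had all old libraries below the young ones, against 4.16% of all genes. The summed level of the 36 genes was 669.5 to 956 TPM in the young, 988.9 and 1050 TPM in the middle-aged and 1042 to 1575 TPM in the old libraries. Ifitm2 and Ifitm3 made up much of that sum: without them it was 397.3 to 477.1 TPM in the young, 515.4 and 643 TPM in the middle-aged and 465.5 to 661.5 TPM in the old libraries, and the old range then overlapped the young one.

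The promoter matches can be set beside these differences. Of the 14 tested genes with an ISRE core, 12 had an old minus young difference above 0 and the median difference was 0.70, while 12 of the 16 genes with a promoter but no ISRE core did and their median was 0.22. For the GAS core, the medians were 0.59 over 11 tested genes with a match and 0.40 over 19 without. For middle-aged against young, the ISRE medians were 0.89 with and 0.10 without a match, while the GAS medians had the other order, 0.27 with and 0.63 without. These medians are descriptions, and whether they differ was not tested.

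**Figure D2:**
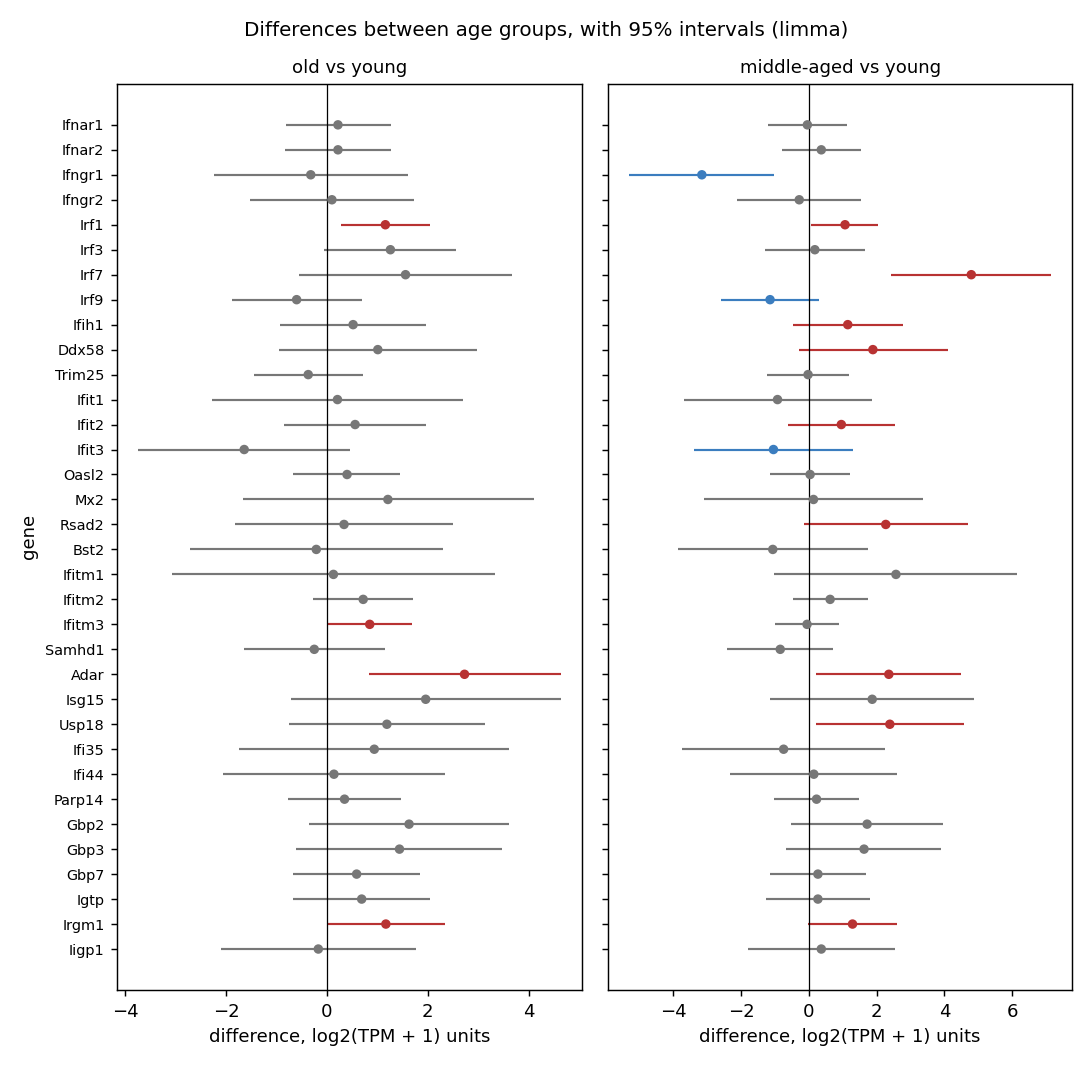
Difference in log2(TPM + 1) with its 95% interval from limma for each of the 34 tested genes, old minus young on the left and middle-aged minus young on the right. Red marks genes whose libraries all lie above the young ones, blue those whose libraries all lie below; old against young has 4 red and no blue genes, and no gene passed the adjusted threshold.

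Transcripts of the 4 receptor genes were found in the bulk libraries of each age. Ifnar2, a chain of the type I receptor, was the most abundant of the 4 receptor genes. Ifnar2 was measured at 60.5, 110 and 31.4 TPM in the young, 65.5 and 91.3 TPM in the middle-aged and 51.7, 91.9 and 70.6 TPM in the old libraries. The groups overlapped, and the old minus young difference was 0.22 (SE 0.47, 95% interval -0.83 to 1.27, adjusted p = 0.965). Exons of Ifnar2 (chromosome 16, 91372783 to 91405589, plus strand, mm10) overlap those of a read-through gene, Gm21970. Ifnar1, the other chain, averaged 29.6 ± 15.4 TPM in the young (SD, n = 3), 26.3 ± 0.86 TPM in the middle-aged (n = 2) and 32.1 ± 6.1 TPM in the old libraries (n = 3). Ifngr2, the accessory chain of the interferon gamma receptor, averaged 9.5 ± 5.6, 9.0 ± 8.9 and 9.2 ± 0.86 TPM at the same ages.

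Ifngr1, the ligand-binding chain of the interferon gamma receptor, was low in the middle-aged libraries. It was measured at 28.9, 53.5 and 21.95 TPM in the young libraries, at 0 and 13.1 TPM in the middle-aged and at 28.1, 16.2 and 37.2 TPM in the old. Both middle-aged libraries lay below every young and every old one, while young and old overlapped. The middle-aged minus young difference was -3.15 (SE 0.97, 95% interval -5.30 to -1.01, adjusted p = 0.4), and the old minus middle-aged difference was 2.83 (SE 0.97, adjusted p = 0.693). The size rested on the 12-month library that is listed at 0: without it the middle-aged minus young difference was -1.24 (adjusted p = 0.592), and without the 13-month library it was -5.06 (adjusted p = 0.0171). With 1 middle-aged library left, that library is assumed to vary like the other groups. Ifngr1 lies on chromosome 10 (19591949 to 19610229, plus strand) and overlaps no exon of another gene.

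Irf1 was the interferon regulatory factor whose old libraries all lay above the young ones. These factors are transcription factors that bind ISRE-like sequences. Irf1 itself is an early target of interferon signalling. It was measured at 39.4, 20.6 and 22.5 TPM in the young, 53.8 and 58.8 TPM in the middle-aged and 76.3, 53.6 and 52.9 TPM in the old libraries. Every middle-aged and every old library was above the highest young one, and middle-aged and old overlapped. The old minus young difference was 1.16 (SE 0.40, 95% interval 0.28 to 2.04, adjusted p = 0.738), which is 2.23-fold on the TPM + 1 scale. The middle-aged minus young difference was 1.07 (SE 0.45, adjusted p = 0.599). Irf1 (chromosome 11, 53770014 to 53778374, plus strand, mm10) overlaps an exon of the antisense gene Gm17334, and the counting is not stated to use strand. Of its 75-base stretches, 1.31% also occur in another gene's transcripts.

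Irf7, which amplifies type I interferon production and is itself induced by interferon, set the middle-aged libraries apart. It is listed at 0 in all 3 young libraries, at 45.2 TPM in the 12-month and 15.6 TPM in the 13-month library, and at 0, 5.01 and 3.25 TPM in the old libraries. Both middle-aged libraries were above every other library. The middle-aged minus young difference was 4.79 (SE 1.06, 95% interval 2.43 to 7.15), and its unadjusted p of 0.00101 became 0.295 on adjustment over all genes. The old minus middle-aged difference was -3.23 (SE 1.06, adjusted p = 0.679). No fold is given against the young group, where the gene is listed at 0. Irf7 (chromosome 7, 141262706 to 141266481, minus strand) overlaps an exon of Phrf1 on the other strand. Irf7 and Ifngr1 were chosen for this detail after their values were seen.

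The other 2 regulatory factors had old minus young differences of opposite sign. Irf3, a factor present before infection that is activated by the RNA sensors, averaged 14.1 ± 9.3 TPM in the young, 15.3 ± 8.8 TPM in the middle-aged and 31.7 ± 8.5 TPM in the old libraries. Its old minus young difference was 1.26 (SE 0.59, adjusted p = 0.833), and the lowest old library, at 22.3 TPM, lay below the highest young one, at 24.4 TPM. Irf9, a DNA-binding subunit of the complex at the ISRE, averaged 28.6 ± 13.7, 13.0 ± 8.7 and 18.4 ± 7.7 TPM, with an old minus young difference of -0.60 (SE 0.58, adjusted p = 0.851). Both middle-aged libraries of Irf9, at 19.2 and 6.84 TPM, lay below the lowest young one, at 20.6 TPM, with a difference of -1.14 (SE 0.65, adjusted p = 0.626).

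**Figure D3:**
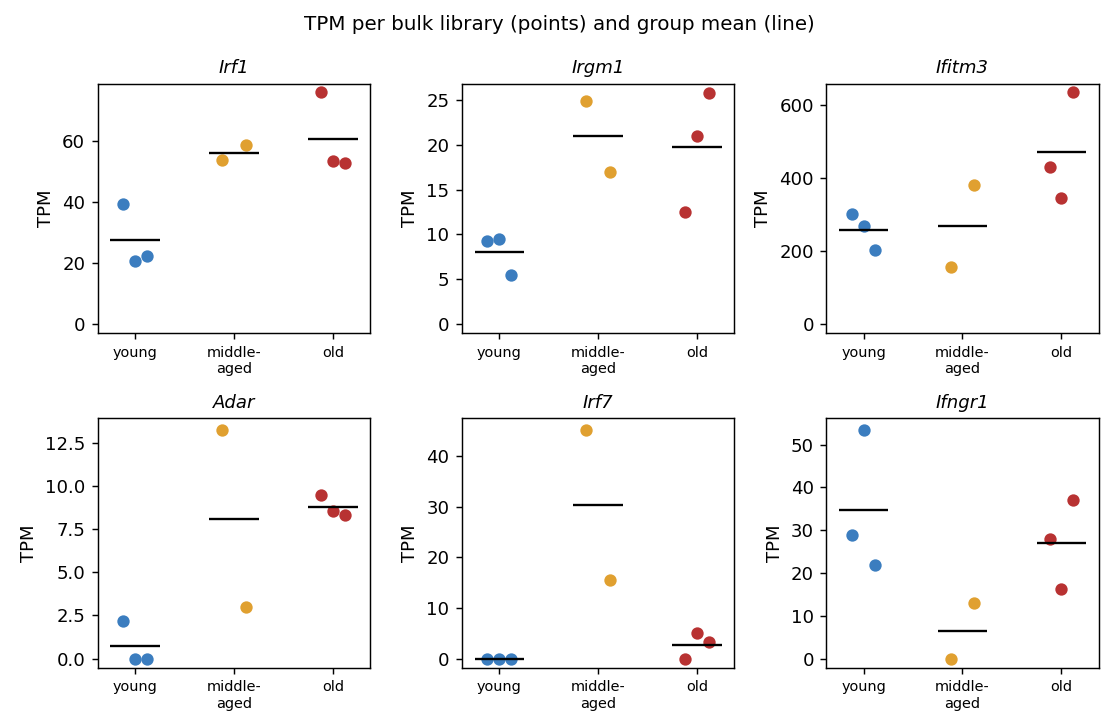
TPM of 6 genes in each bulk library (points), with the group mean as a line; the axes start near 0 and differ between panels. All old libraries lie above all young ones for Irf1, Irgm1, Ifitm3 and Adar, and Irf7 and Ifngr1 set the middle-aged libraries apart.

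Of the 3 genes of cytosolic RNA sensing, Ddx58 was the most abundant and the most variable. Ddx58 encodes RIG-I, a sensor of viral RNA ends. It was measured at 38.1, 2.90 and 27.1 TPM in the young, 55.6 and 63.4 TPM in the middle-aged and 12.5, 85.6 and 29.1 TPM in the old libraries. Young and old libraries overlapped, and both middle-aged libraries lay above the young ones. The old minus young difference was 1.01 (SE 0.89, 95% interval -0.95 to 2.97, adjusted p = 0.839), and without the second young library, the one at 2.90 TPM, it was -0.02. Ifih1, the sensor MDA5, averaged 15.2 ± 10.9, 27.7 ± 1.3 and 17.7 ± 3.5 TPM, and its middle-aged libraries lay above all the others. Trim25, the ubiquitin ligase that activates RIG-I, averaged 24.2 ± 3.9, 23.8 ± 2.0 and 20.1 ± 11.2 TPM.

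Among the 14 effectors against RNA and viruses, Ifitm3 and Ifitm2 were far more abundant than the rest. They encode membrane proteins that block the fusion of viruses with the cell. Ifitm3 was measured at 301, 267 and 201 TPM in the young, 156 and 380 TPM in the middle-aged and 431, 346 and 635 TPM in the old libraries. Each old library was above each young one, and the middle-aged libraries spread over both ranges. The old minus young difference was 0.85 (SE 0.38, 95% interval 0.0 to 1.69, adjusted p = 0.833), which is 1.8-fold on the TPM + 1 scale. Ifitm3 lies on chromosome 7 (141009586 to 141010770, minus strand, mm10), and 0.662% of its 75-base stretches occur in another gene.

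Ifitm2, on chromosome 7 with Ifitm3 and Ifitm1, had an old minus young difference of 0.72 (SE 0.45, adjusted p = 0.839) and overlapping groups. Its level is uncertain, since 42% of its 75-base stretches also occur in other genes such as Gm45717. Ifitm1 was listed at 0 in 4 of the 8 libraries and at 9 to 21.3 TPM in the others.

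Adar, which edits adenosine to inosine in double-stranded RNA, was low in the young libraries. It was listed at 2.15, 0 and 0 TPM in the young, 13.2 and 2.96 TPM in the middle-aged and 9.44, 8.53 and 8.34 TPM in the old libraries. Every middle-aged and every old library was above the highest young one, and the old libraries lay close together. The old minus young difference was 2.73 (SE 0.86, 95% interval 0.83 to 4.64, adjusted p = 0.72), and the middle-aged minus young difference was 2.36 (SE 0.96, adjusted p = 0.588). The size depends on the constant added before the logarithm, at 4.97 with 0.1 TPM and 1.29 with 5 TPM. Adar (chromosome 3, 89715022 to 89753446, plus strand, mm10) overlaps exons of Chrnb2 on the other strand, and 18.5% of its 75-base stretches occur there.

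The other effectors included the classical induced genes, most of them low. Oasl2, a relative of the oligoadenylate synthetases, was the exception, at 45.6 ± 8.9 TPM in the young, 50.4 ± 28.1 TPM in the middle-aged and 64.5 ± 28.4 TPM in the old libraries, with a difference of 0.40 (SE 0.48, adjusted p = 0.883). Samhd1, which hydrolyses deoxynucleotides, averaged 26.9 ± 13.2, 15.9 ± 12.5 and 22.6 ± 11.8 TPM. Of the Ifit genes, whose proteins bind viral RNA, Ifit1 averaged 4.1 ± 4.3, 1.3 ± 1.8 and 4.2 ± 4.5 TPM, and Ifit2 7.4 ± 3.2, 14.6 ± 4.0 and 11.7 ± 5.7 TPM. Ifit3 had the most negative old minus young difference of the group, -1.64 (SE 0.95, adjusted p = 0.839), with levels of 14.9, 18.6 and 9.17 TPM in the young and 0, 6.65 and 12.7 TPM in the old libraries. Those ranges overlap, and 41.1% of the 75-base stretches of Ifit3 also occur in its copy Ifit3b.

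The remaining effectors were near the lower end. Oas1a, which makes the activator of RNase L, was above 0 in 1 library only, the 13-month one, at 7.43 TPM, and shares 47.6% of its 75-base stretches with Oas1g. The antiviral GTPase gene Mx1, which is defective in C57BL/6 mice, was above 0 in 2 old libraries, at 2.07 and 2.25 TPM. Rsad2, which encodes viperin, had middle-aged levels of 5.96 and 10.6 TPM above all others, with a middle-aged minus young difference of 2.27 (SE 1.09, adjusted p = 0.626). Bst2, which encodes tetherin, was listed at 0 in 6 libraries. Mx2, annotated as a polymorphic pseudogene, ranged from 0 to 21.5 TPM.

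The 5 genes of the ISG15 system and other induced proteins each had a higher mean in old than in young libraries, with a median difference of 0.94 and no adjusted p below the threshold. Isg15, the ubiquitin-like modifier, was listed at 0 in the 3 young libraries, at 12.3 and 0 TPM in the middle-aged and at 0, 8.95 and 4.94 TPM in the old. Usp18, which removes Isg15 from proteins and dampens receptor signalling, was likewise listed at 0 in the young libraries, at 4.48 and 3.98 TPM in the middle-aged and at 0, 3.27 and 1.78 TPM in the old. Both genes had an old library at 0, so their young and old groups overlap. Irf7, Isg15 and Usp18 were thus each at 0 in all 3 young libraries and in the first old library. Parp14, an ADP-ribosyltransferase, was the most abundant of the 5 genes, at 13.3, 12.7 and 10.3 TPM in the young, 12.1 and 16.7 TPM in the middle-aged and 10.9, 16.1 and 21.4 TPM in the old libraries. These ranges overlapped, with an old minus young difference of 0.35 (SE 0.51, adjusted p = 0.906). Ifi35 and Ifi44 ranged from 0 to 18.5 TPM and from 1.04 to 16.6 TPM over the 8 libraries.

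Irgm1 led the 6 guanylate-binding and immunity-related GTPases, interferon-gamma-induced proteins that attack the vacuoles of intracellular pathogens. Irgm1, a regulator of the other members, was measured at 9.25, 9.51 and 5.46 TPM in the young, 24.98 and 16.96 TPM in the middle-aged and 12.5, 21.01 and 25.9 TPM in the old libraries. All middle-aged and all old libraries were above the young ones. The old minus young difference was 1.17 (SE 0.53, 95% interval 0.01 to 2.34, adjusted p = 0.833), and the middle-aged minus young difference was 1.29 (SE 0.59, adjusted p = 0.626). Irgm1 (chromosome 11, 48861968 to 48871683, minus strand, mm10) shares no 75-base stretch with another gene. Of the 6 GTPase genes, 5 had a higher mean in old and 6 a higher mean in middle-aged than in young libraries, with medians of 0.93 and 0.83.

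The other GTPase genes had overlapping groups. Gbp2 averaged 4.4 ± 6.1, 10.2 ± 2.9 and 9.3 ± 0.92 TPM, with an old minus young difference of 1.63 (SE 0.90, adjusted p = 0.839). Gbp3 differed by 1.44 (SE 0.92, adjusted p = 0.839), Gbp7 by 0.59 (SE 0.57, adjusted p = 0.85) and Igtp by 0.69 (SE 0.62, adjusted p = 0.839). Iigp1 was the lowest of the 6, at 4.1 ± 2.6 TPM in the young and 3.8 ± 2.6 TPM in the old libraries.

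In the comparison of middle-aged with young libraries, genes of the group stood both above and below the young ones. Of the 34 tested genes, 23 had a difference above 0 (67.6%) and 11 below it, against 55.2% and 40.6% of all genes, and the median was 0.27 against 0.18 over all genes. Both middle-aged libraries lay above all young ones for 9 genes (26.5%), against 12.6% of all genes: Irf1, Irf7, Ifih1, Ddx58, Ifit2, Rsad2, Adar, Usp18 and Irgm1. They lay below for 3 genes, Ifngr1, Irf9 and Ifit3, against 5.37% of all genes. At an unadjusted p of 0.05, 4 genes were higher and 1 was lower, against 5.5% and 2.28% of all genes. Irf1, Adar and Irgm1 were the 3 genes with both middle-aged and all old libraries above the young ones; both comparisons use the same young libraries. With 2 libraries in the middle-aged group, these counts rest on few animals.

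For old against middle-aged libraries, 19 of the 34 genes had a difference above 0 and 15 below it, against 42.4% and 53% of all genes. The median was 0.09, against -0.09 over all genes. All old libraries lay above both middle-aged ones for 2 of the 34 genes (5.88%), Irf3 and Ifngr1, against 7.15% of all genes. They lay below for 4 of the 34, Irf7, Ifih1, Rsad2 and Usp18, against 12.8% of all genes. Neither share was above that of all genes. At an unadjusted p of 0.05, 1 gene was higher and 1 lower, against 2.34% and 3.85% of all genes.

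Markers of some other cell types also had higher summed levels in the old than in the young libraries. The 8 Schwann cell markers summed to 84.7 to 155 TPM in the young, 175 to 323 TPM in the middle-aged and 417 to 1318 TPM in the old libraries, and 8 of 8 had an old minus young difference above 0. The 6 tenocyte markers summed to 9.76 to 29.1, 64.4 to 91.4 and 68.7 to 81.5 TPM, and the 7 endothelial markers, with Cldn5 and Egfl7 at 0 throughout, to 22.2 to 36.04, 41.9 to 87.4 and 41.1 to 66.3 TPM. The 10 macrophage and monocyte markers summed to 29.1 to 49.4 TPM in the young, 85.0 to 124 TPM in the middle-aged and 28.4 to 60.4 TPM in the old libraries, with C1qa at 0 in all 8. The 8 lymphocyte markers, with Nkg7 at 0, summed to 0 to 22.1, 19.4 to 57.03 and 6.37 to 15.2 TPM. Both middle-aged libraries had the highest macrophage sums, as they had the highest Irf7 levels, but the markers were not uniform. Lyz2, a lysozyme gene, made up most of the sum in these libraries, at 78.65 and 58.24 TPM, and Csf1r and Itgam were also highest there. Ptprc, the pan-leukocyte gene for CD45, was at 4.79 and 4.25 TPM, below every young library, and the highest Cd68 level, 18.38 TPM, was in a young library. The 8 fibroblast and fibro-adipogenic markers, with Pi16 at 0, summed to 564.3 to 625.3 TPM in the young, 503.7 to 609.9 TPM in the middle-aged and 629.4 to 1146 TPM in the old libraries; Dcn and Mfap5 had all old libraries above the young ones, and Col3a1 had all below. The 5 smooth muscle and pericyte markers summed to 389.7 to 557.1, 455.1 to 633.9 and 383.2 to 751.1 TPM, with Acta2, Myh11 and Cspg4 above and Kcnj8 below in all old libraries. The 10 myogenic markers summed to 1297 to 1431, 897 to 1393 and 791 to 1443 TPM. The part of these other cells in the differences above was not tested.

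Further genes of the pathway were listed by their textbook roles. Of 89 further rows for interferon pathway genes, 75 were tested, and none passed an adjusted p of 0.05 in any comparison. For old against young, 51 had a difference above 0 (68%) and 23 below, against 49.6% and 45.8% of all genes, and the median was 0.54. All old libraries lay above the young ones for 8 of them (10.7%) and below for 1, against 5.85% and 4.16% of all genes. The ligands were mostly undetected: 7 of 11 did not reach a mean of 1 TPM. The other 4 were interferon alpha genes, each listed at 0 in 6 or 7 libraries. Ifna2 was at 5.47 TPM in the first young and 8.34 TPM in the 12-month library, and Ifna11 at 17.95 TPM in the 12-month library. Ifna4 was at 16.52 TPM in the 13-month and 7.49 TPM in the third old library, and Ifna5 at 12.03 TPM in the first young library. Ifnb1, which encodes interferon beta, was listed at 0 in all 8 libraries, and Ifng, which encodes interferon gamma, was at 4.54 TPM in the first young library and 0 in the others.

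Of the 9 signal transducers tested, 3 had all old libraries above all young ones (33.3%, against 5.85% of all genes), namely Stat2, Jak1 and Pias1. This share was the highest of the lists of further genes. Of the 44 other induced genes tested, it was 4.55%, below that of all genes, and 1 gene had all old libraries below. It was 28.6% of the 7 other Irf genes, 9.09% of the 11 sensing adaptors and kinases and 0.0% of the 4 ligands. Stat2, a transcription factor of the type I response, differed between old and young by 0.62 (SE 0.60, adjusted p = 0.849), from 3.78 to 6.94 TPM in the young and 7.43 to 11.04 TPM in the old libraries. Jak1, a kinase of both receptors, differed by 0.57 (SE 0.37, adjusted p = 0.839), from 44.7 to 53.9 TPM in the young and 54.1 to 97.0 TPM in the old. For Stat2 and Jak1 the closest old and young libraries lay near each other. Pias1 was at 17.33 to 26.5 TPM in the young and 32.35 to 45.36 TPM in the old libraries.

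Cxcl10, an interferon-gamma-induced chemokine, had the smallest p of these further genes. It was measured at 2.27, 4.74 and 2.59 TPM in the young, 14.7 and 27.7 TPM in the middle-aged and 42.4, 15.7 and 30.6 TPM in the old libraries. Every middle-aged and old library exceeded the highest young one. The old minus young difference was 2.80 (SE 0.59, 95% interval 1.49 to 4.12, unadjusted p = 0.000709, adjusted p = 0.501). Irf8, best known from macrophages and other myeloid cells, was at 0, 0 and 1.99 TPM in the young and 3.91 to 6.17 TPM in the old libraries, and higher, at 19.1 and 6.68 TPM, in the middle-aged. Ticam1, the adaptor of Toll-like receptor 3, was at 0 to 6.61 TPM in the young and 9.06 to 14.8 TPM in the old libraries. Tbk1, the kinase that activates Irf3, overlapped between the ages, with a difference of 2.47 (SE 1.05, adjusted p = 0.831).

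In the single-cell wells, few interferon response genes were found per cell, and the 2 mice differed in how many genes were found at all. A gene was counted as found at 1 TPM or more. Young wells held a median of 1854 genes (7 to 3621) and old wells a median of 64 (3 to 2950), and at least 1000 genes were found in 54 of 64 young and 7 of 31 old wells. The number of interferon response genes found had a median of 3 (0 to 9) in young and 0 (0 to 8) in old wells. In wells with at least 1000 genes, a limit chosen after seeing the data, the medians were 4 and 3. Across the 95 wells the number of these genes followed the number of all genes found (Pearson r = 0.787, Spearman rho = 0.811), and less closely in the 54 young wells with at least 1000 genes (0.377 and 0.405); the points share wells and depth, and the values are descriptions. With 1 mouse per age no test between ages was made.

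**Figure D4:**
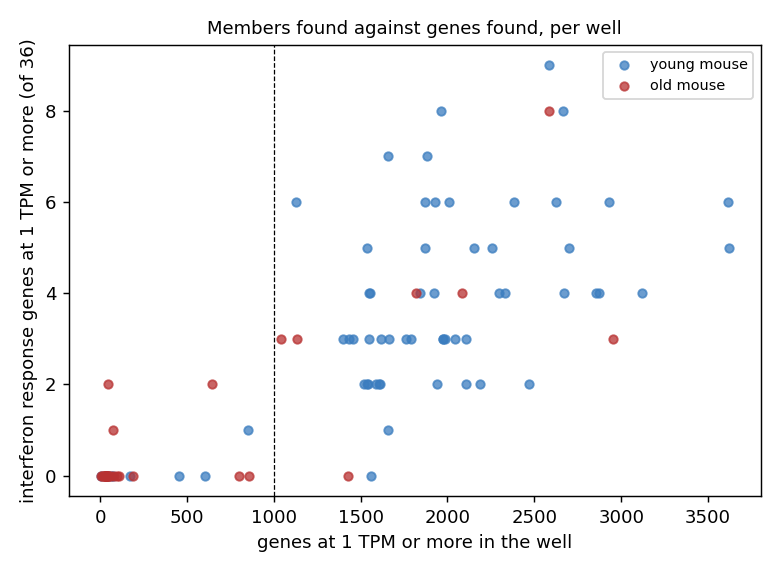
Number of the 36 interferon response genes found at 1 TPM or more in each well, against the number of all genes found, for the young (blue) and the old mouse (red); the dashed line marks 1000 genes. Most old wells lie left of the line with no interferon response gene, and 7 of 31 lie right of it.

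Ifitm2 and Ifitm3 were the genes found in most cells, as they were the most abundant in bulk. Ifitm3 was found in 42 of 64 young wells (65.6%, exact 95% interval 52.7 to 77.1%) and 7 of 31 old wells (22.6%, 9.59 to 41.1%). Among wells with at least 1000 genes its share was 77.8% of 54 young wells (64.4 to 88.0%) and 85.7% of 7 old wells (42.1 to 99.6%). The old share was then the higher one, with overlapping intervals. Ifitm2 was found in 44 of 64 young wells (68.8%) and 7 of 31 old wells (22.6%), and in 81.5% and 85.7% of the wells with at least 1000 genes. Where found in young wells, Ifitm3 ranged from 3.75 to 2790 TPM with a median of 379 TPM, and Ifitm2 from 2.21 to 1435 TPM with a median of 187 TPM. Both were found together in 34 of 64 young wells. Intervals cover counting error between wells only.

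Many of the same wells carried myogenic transcripts. Ifitm3 was found in 39 of the young wells with Myf5, a factor of the muscle lineage. Another 12 wells had Myf5 without Ifitm3, 3 had Ifitm3 without Myf5 and 10 had neither. Among the 54 young wells with at least 1000 genes, these counts were 39, 11, 3 and 1. Most of those wells thus held Myf5, with or without Ifitm3. With Pax7, the factor of muscle stem cells, Ifitm3 was found in 29 young wells, and 13 wells had Ifitm3 without Pax7. Of the macrophage and monocyte markers, Cd68 was found in 1 young well and the others in none. No wells came from middle-aged mice, whose bulk libraries had the highest macrophage sums. Which cells gave the bulk differences was not tested.

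Ifngr1, Ifnar2 and Irf3 came next. Ifngr1 was found in 22 young wells (34.4%, 22.9 to 47.3%) and 2 old wells, Ifnar2 in 13 young wells (20.3%, 11.3 to 32.2%) and no old well, and Irf3 in 12 young wells (18.8%) and 4 old wells. Among wells with at least 1000 genes, Ifngr1 was in 38.9% of 54 young and 28.6% of 7 old wells (3.67 to 71.0%). Ifnar2 was there in 24.1% and 0.0%. For Irf3 the old share was the higher one, at 22.2% and 42.9% (9.9 to 81.6%). A count of 0 in 31 old wells allows a share of up to 9.68% by the limit of 3 wells. The exact 95% interval allows up to 11.2%. Of those 31 wells, 24 held fewer than 1000 genes, so these bounds do not limit the share of old cells with Ifnar2. A count of 0 in the 7 old wells with at least 1000 genes allows up to 42.9% by the limit of 3 wells. Ifnar1 was found in 6 young wells, 1 of which also held Ifnar2, and Ifngr2 in 1 young well, which also held Ifngr1. Irf1 was found in 7 young wells (10.9%) at 7.76 to 547 TPM and in 2 old wells at 1.54 and 18.03 TPM. Neither of those 2 old wells held 1000 genes. Irf7 was found in 2 young wells and 1 old well.

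**Figure D5:**
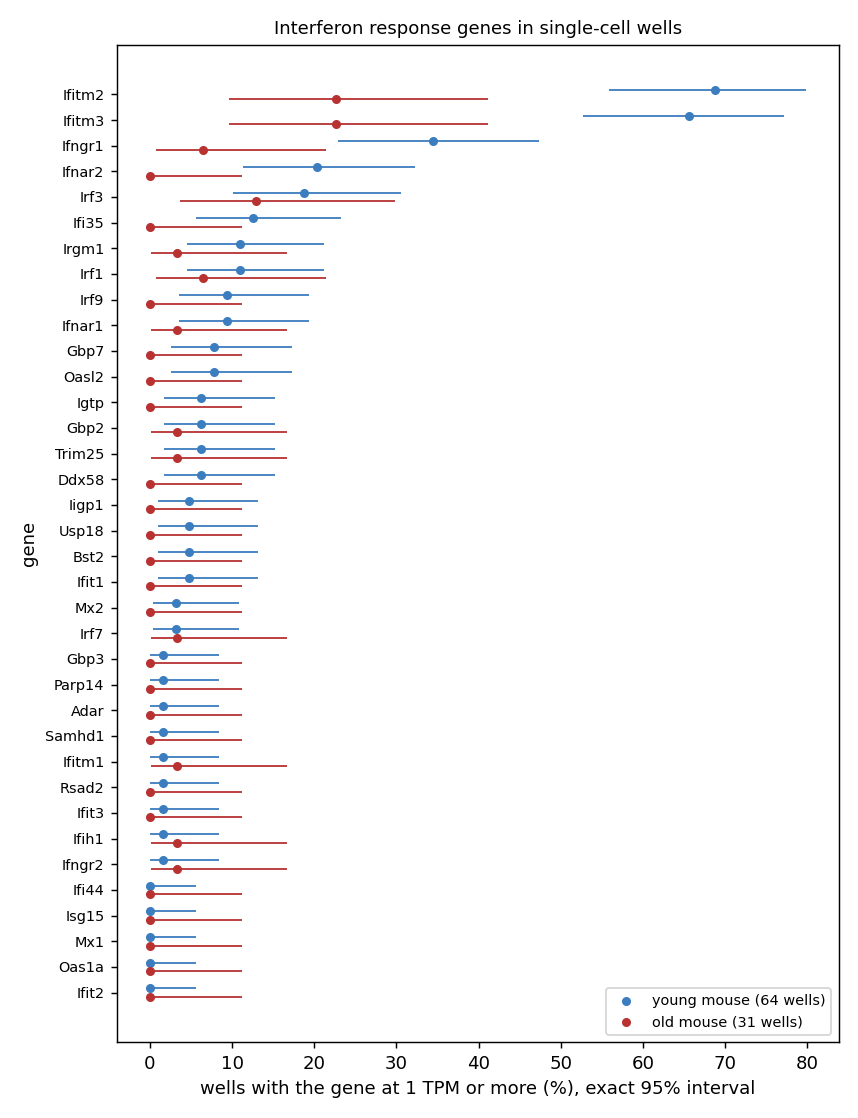
Share of wells with each of the 36 genes at 1 TPM or more, with exact 95% intervals, in the young mouse (blue, 64 wells) and the old mouse (red, 31 wells). Ifitm2 and Ifitm3 stand at the top with 68.8% and 65.6% of young wells, and 24 of the 31 old wells held fewer than 1000 genes.

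The 30 genes other than the receptors, Ifitm2 and Ifitm3 were mostly sparse in the wells, as were Ifnar1 and Ifngr2. Ifit2, Oas1a, Mx1, Isg15 and Ifi44 were found in no young well, which allows a share of up to 4.69% by the limit of 3 wells, or 5.6% by the exact 95% interval. In the old wells, 24 of which held fewer than 1000 genes, 23 of the 36 genes were not found. Ifi35 was found in 8 young wells (12.5%) and no old well. Irgm1 was found in 7 young wells (10.9%) at 1.71 to 550.4 TPM, and Adar in 1 young well. These 30 genes include Irf3, which does not depend on induction, and of the 64 young wells 23 held none of them, 17 held 1, 9 held 2 and 15 held 3 or more. The most in a well was 6, namely Ifit1, Oasl2, Usp18, Gbp7, Irgm1 and Iigp1, in a well with 1964 genes. None of the 11 ligand genes was found in any well. Jak1 was found in 29 young wells (45.3%) and 4 old wells.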

How the data were processed

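Bulk and single-cell values are TPM as deposited by the authors: shares of a library scaled to a common total (999999.2 to 1000000.9 per bulk library), from which read depth cannot be read, so precision rests on the spread between libraries. Per the labels' protocols, RNA was amplified with a NuGEN kit and sequenced as single reads of 75 bases; per the submitters' processing notes, STAR and mm10 were used. The aligner's version, the annotation, the strand setting and the quantifier were not found in the labels. Of 45798 bulk entries, 43283 genes were used; spike-ins and entries without a gene ID were left out. Positions are from GENCODE vM21.

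Bulk ages were compared by limma (version 3.58.1, R version 4.3.3) after taking log2(TPM + 1), with 1 mean per age, all 8 libraries, genes averaging 1 TPM or more, a variance trend, two-sided tests and Benjamini-Hochberg adjustment at 0.05; the script was tested on simulated data. Wells were summarised with Clopper-Pearson intervals, with 3 wells as the limit behind a count of 0. Shared 75-base stretches were counted in GENCODE transcripts. Python 3.11.15 was used. The members and lists were chosen with earlier results of these data known. Every library's value was printed for members past the threshold or with separate young and old libraries, and for the most abundant member of each role. Of further pathway genes, Stat2, Jak1, Cxcl10, Ifnb1 and Ifng, and the 4 with the smallest p, were named. The 4 interferon alpha genes that passed the filter and Pias1 were named after their values were seen. Alternatives were other constants, filters, scaling, samples, a replicate block and each library left out. A result for 1 further pathway gene is not reported here.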

Additional observations from a re-analysis of the deposited data

How the results depend on the processing

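No interferon response gene was called for old against young under any alternative run; 27 of 34 had a difference above 0, with 23 to 28 when 1 library was left out, and the median of 0.54 ranged from 0.38 (constant of 5 TPM) to 0.69 (0.1 TPM) and from 0.42 to 0.64 with 1 library left out. Over the genes averaging 1 TPM or more, deviations of same-numbered libraries from their group means were nearly uncorrelated (r = -0.0121 to 0.00488 over 7 pairs). The 2 middle-aged libraries deviate by equal and opposite amounts, so these pairs are not independent. A link limited to few genes would not show in these values. With the replicate block, the median stayed at 0.54, 27 genes were above 0 and 0 genes were called in each comparison. The Ifnar2 difference between old and middle-aged, -0.15 without the block, was 0.07 with it. The calls that moved concern the middle-aged group. Against young, 1 gene of all tested was called, and 7 with a constant of 0.1 TPM, 2 with a mean of at least 5 TPM, and 0 with a constant of 5 TPM, no filter, without spike-ins and mitochondrial genes or with only the 2 groups; leaving out 1 library gave 0 to 884. Old against middle-aged gave 0, 6 with a constant of 0.1 TPM, and 0 to 799 with 1 library left out. The high counts came without a middle-aged library, when the other is assumed to vary like the remaining groups: 599 and 557 genes without the 12-month library, 884 and 799 without the 13-month one. Members called then ranged from 0 to 1 in both comparisons (Oas1a without the 12-month library, Ifngr1 without the 13-month one), the median for middle-aged against young from 0.27 to 0.67, and the members above 0 for old against middle-aged from 12 to 23, against 19 in all libraries. With 1 library left out, differences that turned sign ranged as follows; the cause was not tested. For old against young, Ifnar2 ranged from -0.23 to 0.66, Ddx58 from -0.02 to 1.65 and Ifngr1 from -0.59 to 0.03. For middle-aged against young, Ifitm3 ranged from -0.69 to 0.58 and Ifnar2 from -0.08 to 0.81. For old against middle-aged, Irf1 ranged from -0.08 to 0.18, Adar from -0.55 to 1.3, Irgm1 from -0.38 to 0.17, Ifnar2 from -0.39 to 0.08 and Parp14 from -0.1 to 0.36. In old wells, Ifitm2 and Ifitm3 were each found in 54.5% of wells with a myogenic gene and 85.7% of those with at least 1000 genes, and in young wells in 81.5% and 77.8% of the latter. The number of genes found per well limits every share of wells.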
